A study of Mus musculus with 16 samples.

Results

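Granzymes and perforin are the proteins with which a CD8 T cell kills. The 10 genes described here (Gzma, Gzmb, Gzmc, Gzmd, Gzme, Gzmf, Gzmg, Gzmk, Gzmm and Prf1) were chosen by symbol, and all 10 were found among 55335 gene rows. All 10 passed the filter on low counts. Poly-A RNA of C57BL/6 mouse spleen cells enriched for CD8 T cells was sequenced in 16 libraries. The 4 groups of 4 libraries were Batf3-/- cells (ko) after 72 h in culture, wild-type cells (wt) after 72 h, ko cells after 48 h and wt cells after 48 h. Every group was stimulated in the same way, with IL-15 at 50 ng/ml and plate-bound anti-CD3e and anti-CD28 at 1 µg/ml each. The labels give neither age nor sex, and the 4 libraries of each group are described as technical replicates. The p-values below therefore rest on the spread among such libraries, which need not reflect that among mice.

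Perforin and the granzymes are stored together in cytotoxic granules. When a T cell meets its target the granules are released into the contact between the cells, perforin opens pores in the target's membrane, and the granzymes, which are serine proteases, enter and cut proteins inside it. Granzyme B cuts after aspartate and activates caspases and Bid, granzymes A and K cut after basic residues, and granzyme M cuts after methionine or leucine. Granzymes C to G are rodent granzymes whose genes lie beside Gzmb, and their substrates are less well known. Naive CD8 T cells hold little of most of these mRNAs, and stimulation through the T cell receptor with cytokines such as IL-15 raises several of them. Batf3 belongs to the AP-1 family of leucine zipper proteins, which binds TGANTCA and, with other leucine zipper factors, TGACGTCA.

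The libraries held 29375818 to 39241169 counted reads, so the 3 reads that a count of 0 allows correspond to 0.0765 to 0.102 CPM (reads scaled to equal library totals), for counting error only. Batf3 itself had 0, 0, 11 and 0 reads in ko libraries and 844 to 1139 reads in wt libraries at 72 h, and 2, 3, 7 and 6 reads in ko libraries and 2505 to 3441 reads in wt libraries at 48 h. In this gene 0 of 16 libraries went against their label. Replicate 4 of ko at 48 h and replicate 4 of wt at 72 h stood apart from the rest of their groups, with root mean square distances of 0.234 and 0.218 on the log2 scale against 0.109 to 0.163 for the other 14 libraries. Without both of them the same members passed the threshold in each comparison described below. Cd4 was under 1 CPM in every library, while the 5 CD8 T cell markers Cd8a, Cd8b1, Cd3e, Cd3d and Cd3g summed to 1874 to 1999 CPM in ko and 1667 to 1742 CPM in wt libraries at 72 h, and to 1166 to 1250 CPM in ko and 1120 to 1159 CPM in wt libraries at 48 h. This sum was higher in ko cells at both times without overlap, and 2 of the 5 markers were called higher and 0 lower at each time. Of all tested genes, 16.9% were called higher and 19.5% lower at 72 h, and 4.41% higher and 2.66% lower at 48 h. The excess lay in Cd3d and Cd3g, with means of 538.2 and 567.5 CPM in ko and 406.5 and 424.3 CPM in wt cells at 72 h. By column sums Cd8b1 was level there, at 347.5 CPM in ko and 345.8 CPM in wt cells. By column sums Cd8a was lower in ko libraries of 72 h without overlap (297.0 to 313.8 CPM, against 332.7 to 363.8 CPM in wt). The edgeR test, which used TMM scaling, did not call Cd8a lower. The TMM factors were 0.941 to 0.958 in ko and 1.01 to 1.07 in wt libraries of 72 h. Smaller factors raise the scaled values, so TMM scaling raises ko relative to wt here. Cd3e had 167.7 CPM in ko and 179.9 CPM in wt cells at that time. Genes for ribosomal proteins took 15.7% to 16.5% of reads in ko and 12.6% to 13.8% in wt libraries at 72 h, and 10.6% to 12.2% in ko and 9.74% to 10.8% in wt libraries at 48 h. The part of these differences in the results below was not tested.

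Of the genes, 6 lie within 144.6 kb on chromosome 14 (GRCm38, 56117626 to 56262260, all on the minus strand) in the order Gzme, Gzmd, Gzmg, Gzmf, Gzmc, Gzmb by rising coordinate. The remaining granzyme gene inside this interval, Gzmn, had 0 or 1 read in every library. Gzma and Gzmk share a stretch of chromosome 13 (113093825 to 113225908, minus strand), and Prf1 (61297833 to 61304680) and Gzmm (79689020 to 79695261) lie apart on the plus strand of chromosome 10. The sequences just before the starts of the 6 clustered genes are shown because the cluster holds both the most and some of the least expressed granzymes, and because the missing factor belongs to the family named above. They are from RefSeq on GRCm38.p6, written 5′ to 3′ in the direction of transcription, as 130 bases before Gzmb and the 110 bases that the other 5 genes have in common. The capitals mark TGAGTCA in Gzmb and, in the other genes, the 8 bases at the place of TGACGTCA.

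Gzmb, chr14:56262335-56262464, minus strand: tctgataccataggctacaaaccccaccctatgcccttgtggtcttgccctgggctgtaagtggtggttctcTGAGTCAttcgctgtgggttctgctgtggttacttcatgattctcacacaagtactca
Gzmc, chr14:56234673-56234782, minus strand: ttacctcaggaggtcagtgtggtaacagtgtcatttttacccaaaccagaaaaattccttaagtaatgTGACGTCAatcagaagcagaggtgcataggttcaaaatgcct
Gzmf, chr14:56211448-56211557, minus strand: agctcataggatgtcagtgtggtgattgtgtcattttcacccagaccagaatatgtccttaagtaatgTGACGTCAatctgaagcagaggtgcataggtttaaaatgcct
Gzmg, chr14:56159615-56159724, minus strand: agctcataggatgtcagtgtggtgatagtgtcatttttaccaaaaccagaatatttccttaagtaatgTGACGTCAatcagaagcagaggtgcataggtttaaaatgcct
Gzmd, chr14:56132613-56132722, minus strand: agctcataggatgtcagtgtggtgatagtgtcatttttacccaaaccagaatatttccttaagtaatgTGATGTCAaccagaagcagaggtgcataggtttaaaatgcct
Gzme, chr14:56120646-56120755, minus strand: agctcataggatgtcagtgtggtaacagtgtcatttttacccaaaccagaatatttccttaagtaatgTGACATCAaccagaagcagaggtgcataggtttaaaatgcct

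The 110-base stretches of Gzmc, Gzmd, Gzme, Gzmf and Gzmg were 84.5% to 97.3% identical in the 10 pairs. Gzmc, Gzmf and Gzmg carry the palindrome TGACGTCA whole. Counting from 1 at the 5′ end of TGACGTCA, Gzmd differs from it by C4T and Gzme by G5A. Each of these 5 stretches also holds TGTGGT, the core bound by Runx factors, 108 to 133 bases before the start. In Gzmb the AP-1 letters TGANTCA stand 58 bases before the start and TGTGGT stands 93 and 34 bases before it. Over the 250 bases before the start, both strands searched, TGANTCA was found in 6.75% of 32851 promoter windows, TGACGTCA in 1.55%, TGTGGT in 14% and the T-box core GGTGTGA in 3.33%. Among the members outside the cluster, TGTGGT was found for Prf1, Gzma and Gzmm and GGTGTGA for Gzmk and Gzmm. For Gzmm they lay before different RefSeq starts, TGTGGT in the window 79688770 to 79689019 and GGTGTGA in the window 79693576 to 79693825. These motifs do not overlap each other where they were found, and a match describes letters, not binding.

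At 72 h, 5 of the 10 genes were higher in ko than in wt cells and 0 were lower. They were Prf1, Gzma, Gzmb, Gzmg and Gzmk, against 16.9% of 15197 tested genes called higher and 19.5% called lower. At 48 h, 6 were higher and 0 lower, and these were Gzma, Gzme, Gzmd, Prf1, Gzmc and Gzmb, against 4.41% of tested genes higher and 2.66% lower. Thus 3 genes, Gzma, Gzmb and Prf1, were higher in ko cells at both times, and Gzmf and Gzmm passed the threshold at neither. The median log2 fold change over the 10 genes was 0.31 at 72 h and 0.76 at 48 h, beside -0.02 and 0.01 over all tested genes. The CPM of the groups did not overlap, ko above wt, for 4 of the 10 genes at 72 h (8.34% of tested genes) and for 6 at 48 h (5.69%). The count of all genes called at 48 h, 1075, was between 507 and 1955 when single libraries were left out. It moved by more than 1.5 times without ko replicate 1 (603), 2 (520) or 4 (1955) and without wt replicate 1 (507) or 2 (568) of 48 h, while 6 of the 10 genes were called higher in each of those fits. Without ko replicate 3 of 48 h, 7 of the 10 genes were called higher. Scaling by library size alone moved the median of all genes at 72 h by -0.13 on the log2 scale and the share of higher calls there to 23.4%, against 46.4%. At 48 h the same scaling moved that share to 48.3%, and DESeq2 to 50.6%, against 62.3%. The members called at each time were called under all of these settings. In bulk RNA, fewer cells of a type and less RNA per cell cannot be told apart.

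**Figure D1:**
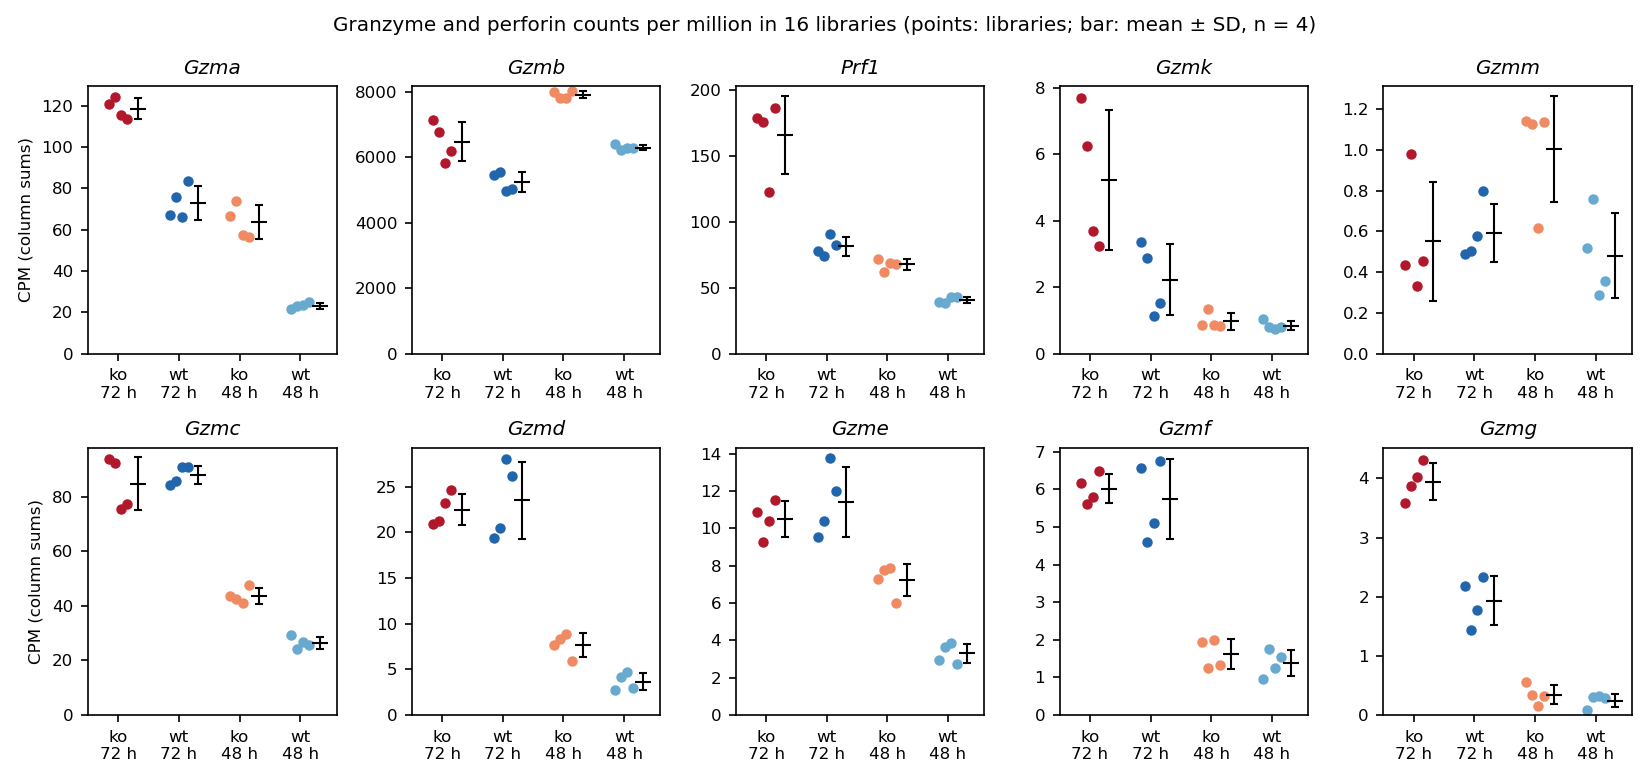
Reads scaled to equal library totals (CPM, from column sums, linear axes starting at 0) of the 10 genes in each of the 16 libraries, with ko left of wt and 72 h left of 48 h. Points are libraries, and the bar beside them is the mean with its SD (n = 4). Gzma, Gzmb and Prf1 lie higher in ko than in wt libraries at both times without overlap, Gzmc, Gzmd and Gzme at 48 h, and Gzmg at 72 h.

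Prf1, which encodes the pore former perforin, had 178.5, 176.2, 122.5 and 186.8 CPM in the 4 ko libraries at 72 h, against 78.0, 74.2, 90.9 and 82.1 CPM in wt libraries. At 48 h it had 71.6, 61.9, 69.0 and 68.3 CPM in ko and 39.2, 38.5, 42.8 and 43.0 CPM in wt libraries. Every ko library lay above every wt library of its time, and ko replicate 3 at 72 h lay well below the other ko libraries of its group. Ko exceeded wt by a log2 fold change of 1.16 (SE 0.09, edgeR quasi-likelihood test, adjusted p = 8.00e-09) at 72 h and 0.76 (SE 0.10, adjusted p = 1.67e-05) at 48 h. The difference between these effects was 0.39 (95% interval 0.13 to 0.66) and did not pass the threshold (adjusted p = 0.0857, edgeR). It passed without ko replicate 3 of 72 h (adjusted p = 0.00323, edgeR). With all libraries kept it passed in DESeq2 (adjusted p = 0.0477) and in edgeR with no filter on low counts (adjusted p = 0.0109).

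Gzmb, which encodes granzyme B, was the most abundant of the 10 genes in every library by a wide margin. It had 7145, 6766, 5814 and 6180 CPM in ko and 5471, 5550, 4956 and 5038 CPM in wt libraries at 72 h. In ko libraries of 48 h it had 7987, 7825, 7823 and 8029 CPM, against 6395, 6234, 6293 and 6283 CPM in wt libraries. The groups did not overlap at either time, but the spread within a group was wider at 72 h (SD 593.4 CPM in ko and 299.9 CPM in wt) than at 48 h (SD 107.9 CPM in ko and 67.5 CPM in wt, n = 4 each). The rise in ko cells was small beside that of Prf1 and Gzma, with a log2 fold change of 0.43 (SE 0.06, adjusted p = 1.86e-05, edgeR) at 72 h and 0.36 (SE 0.06, adjusted p = 0.000875) at 48 h. The difference between the times was 0.06, with a 95% interval of -0.12 to 0.24 (adjusted p = 0.758, edgeR). Gzmb alone took 0.496% to 0.803% of all counted reads of a library.

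Gzma, the gene for granzyme A, had the largest rise of any member at 48 h. It had 120.9, 124.5, 115.8 and 113.5 CPM in ko and 67.1, 75.6, 66.0 and 83.6 CPM in wt libraries at 72 h. At 48 h it had 66.6, 74.0, 57.5 and 56.5 CPM in ko libraries and 21.4, 22.9, 23.7 and 24.8 CPM in wt libraries. Groups were apart at both times. On the log2 scale the difference of ko over wt was 0.82 (SE 0.09, edgeR adjusted p = 5.21e-07) at 72 h and 1.49 (SE 0.10, adjusted p = 1.26e-10) at 48 h, where it stood at percentile 99.6 of all tested genes. The effect was smaller at 72 h (72 h effect minus 48 h effect -0.67 on the log2 scale, SE 0.13, adjusted p = 0.00364, edgeR).

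Gzmk, its neighbour on chromosome 13, encodes granzyme K, which is known from effector memory CD8 T cells. It had 7.71, 6.26, 3.70 and 3.26 CPM in ko libraries at 72 h, and 3.36, 2.89, 1.12 and 1.54 CPM in wt libraries. Replicates 1 and 2 were the higher ones in both genotypes, and the lowest ko library lay below the highest wt library. This gave a log2 fold change of 1.35 (SE 0.29, edgeR adjusted p = 0.000942). At 48 h it had 0.849, 1.36, 0.848 and 0.820 CPM in ko libraries against 1.03, 0.788, 0.734 and 0.790 CPM in wt libraries, 26 to 47 reads each. The groups overlapped, and the log2 fold change of 0.25 had a 95% interval of -0.45 to 0.95 (adjusted p = 0.747, edgeR). The difference of the effects, 1.10 (SE 0.46), did not pass the threshold (adjusted p = 0.170), although it did with no filter on low counts (adjusted p = 0.0242). The exons of Gzmk overlap those of Esm1 on the opposite strand, which had at most 22 reads in a library.

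Gzmc, Gzmd, Gzme, Gzmf and Gzmg need care because their mRNAs resemble each other. Their coding sequences were 73.3% to 94.8% identical over the 10 pairs, with Gzmd and Gzme the closest, while that of Gzmb was 69.3% to 76.6% identical to them. Of all 50-base stretches of the annotated transcripts, 21.9% in Gzmd, 20.6% in Gzme, 19.4% in Gzmf, 19.8% in Gzmg and 4.14% in Gzmc were also present in another gene. At 100 bases the shares were 0.231%, 0%, 6.71%, 0.247% and 0% in the same order, those of Gzmf all with Gm4022, an antisense model over its exons that had at most 8 reads. For the other 5 members the share was 0% at both lengths. How the authors counted reads with several matches is not given in the sources used here. The split of reads among these 5 genes is therefore uncertain, and their sum is given first.

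Summed, Gzmc to Gzmg had 135.4, 132.4, 118.9 and 124.4 CPM in ko libraries at 72 h, against 121.9, 122.8, 139.6 and 138.2 CPM in wt libraries. At 48 h they had 61.1, 60.1, 59.8 and 61.1 CPM in ko and 36.0, 34.0, 36.9 and 33.4 CPM in wt libraries. The groups of 48 h lay far apart, with means of 60.5 ± 0.687 CPM in ko and 35.1 ± 1.67 CPM in wt libraries (SD, n = 4 each), a 1.73-fold difference. Those of 72 h overlapped, with means of 127.8 ± 7.53 CPM in ko and 130.6 ± 9.58 CPM in wt libraries. With TMM scaling in place of column sums the order of these means turned round, to 134.4 CPM in ko and 125.9 CPM in wt libraries.

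Most of that sum was Gzmc, at 93.9, 92.5, 75.5 and 77.4 CPM in ko and 84.2, 85.9, 90.9 and 90.9 CPM in wt libraries of 72 h, groups that overlapped. In ko libraries of 48 h Gzmc had 43.6, 42.4, 40.9 and 47.6 CPM, against 29.2, 24.0, 26.8 and 25.8 CPM in wt libraries. All ko libraries of 48 h lay above all wt libraries. The log2 fold change was 0.07 (95% interval -0.07 to 0.22, adjusted p = 0.468, edgeR) at 72 h, and 0.75 (SE 0.08, adjusted p = 3.43e-07) at 48 h.

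Gzmd had 20.95, 21.2, 23.2 and 24.6 CPM in ko and 19.4, 20.5, 28.02 and 26.1 CPM in wt libraries at 72 h. At 48 h Gzmd had 7.67, 8.31, 8.84 and 5.90 CPM in ko and 2.75, 4.22, 4.69 and 2.98 CPM in wt libraries. For Gzmd the genotypes overlapped at 72 h and were apart at 48 h. Gzme had 10.9, 9.25, 10.4 and 11.5 CPM in ko and 9.54, 10.4, 13.8 and 12.03 CPM in wt libraries at 72 h. At 48 h Gzme had 7.32, 7.76, 7.86 and 6.00 CPM in ko and 2.97, 3.64, 3.85 and 2.75 CPM in wt libraries. Its groups, too, overlapped at 72 h and were apart at 48 h. At 72 h the log2 fold change was 0.07 for Gzmd (95% interval -0.21 to 0.34, adjusted p = 0.756, edgeR) and 0.01 for Gzme (-0.25 to 0.26, adjusted p = 0.974). For Gzmd it was 1.11 (SE 0.17, adjusted p = 0.000166, edgeR) at 48 h and for Gzme 1.17 (SE 0.14, adjusted p = 6.57e-06). The sign of the 72 h values of Gzmc, Gzmd and Gzme turned with the scaling, and none of the 3 passed the threshold at 72 h in any setting tried.

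The effect of genotype differed between the times for these 3 genes by a test of the difference itself. The 72 h effect minus the 48 h effect was -0.68 for Gzmc (SE 0.11, adjusted p = 0.000396, edgeR), -1.05 for Gzmd (SE 0.22, adjusted p = 0.00619) and -1.17 for Gzme (SE 0.19, adjusted p = 0.000780). With Gzma, 4 of the 10 genes passed this test, all in this direction, and 0 passed in the other. Of all tested genes, 3.53% passed it with a negative and 2.08% with a positive difference.

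Gzmg, which lies between Gzmd and Gzmf, passed the threshold at 72 h and not at 48 h. It had 3.58, 3.86, 4.03 and 4.31 CPM in ko libraries and 2.19, 1.43, 1.77 and 2.34 CPM in wt libraries at 72 h, with no overlap. At 48 h it was close to the limit of detection, with 0.556, 0.346, 0.154 and 0.316 CPM in ko and 0.0816, 0.303, 0.314 and 0.280 CPM in wt libraries, which is 3 to 19 reads each. The groups of 48 h overlapped. The log2 fold change stood at 1.16 (SE 0.25, edgeR adjusted p = 0.000693) at 72 h and 0.50 (95% interval -0.27 to 1.27, adjusted p = 0.495) at 48 h. The difference of the effects, 0.66 (95% interval -0.27 to 1.58), did not pass (adjusted p = 0.471, edgeR), so the call at 72 h alone does not show that they differ.

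Gzmf passed in neither comparison of genotypes. It had 6.17, 5.62, 5.79 and 6.48 CPM in ko and 6.56, 4.59, 5.11 and 6.75 CPM in wt libraries at 72 h, and at 48 h 1.24 to 2.00 CPM in ko and 0.953 to 1.76 CPM in wt libraries. The groups overlapped at both times. The 95% interval of the log2 fold change was -0.15 to 0.53 at 72 h and -0.13 to 0.70 at 48 h, and both intervals include the log2 fold change of Gzmb at the same time.

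Gzmm, the granzyme M gene, was the least expressed member per length at 72 h and is best known from natural killer (NK) cells. It had 0.437, 0.980, 0.333 and 0.452 CPM in ko and 0.490, 0.504, 0.579 and 0.800 CPM in wt libraries at 72 h, or 10 to 34 reads. In ko libraries of 48 h it had 1.14, 1.13, 0.617 and 1.14 CPM, against 0.517, 0.758, 0.288 and 0.357 CPM in wt libraries. Of the 4 ko libraries of 48 h, 3 lay above all wt libraries, and replicate 3 lay among them. The log2 fold change was 0.03 (95% interval -0.73 to 0.78, adjusted p = 0.967, edgeR) at 72 h and 1.10 (SE 0.37, adjusted p = 0.0680) at 48 h. Without ko replicate 3 of 48 h it passed (adjusted p = 0.043).

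**Figure D2:**
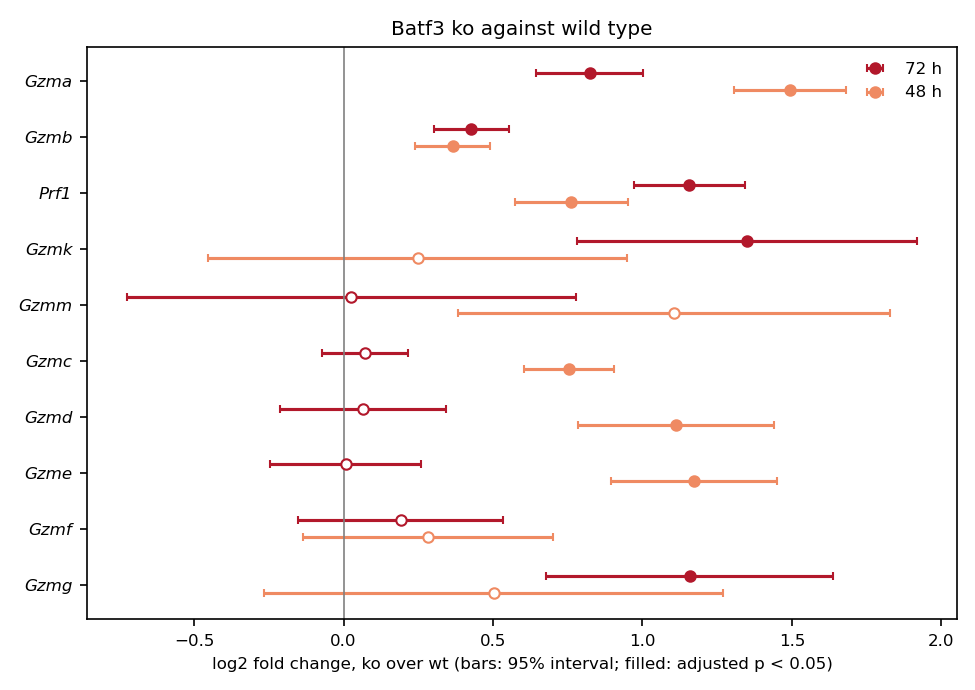
Log2 fold change of ko over wt for the 10 genes at 72 h (dark) and 48 h (light), from edgeR, with bars for the 95% interval. Filled points passed an adjusted p of 0.05. Gzmc, Gzmd and Gzme are filled at 48 h and near 0 at 72 h, while Gzmg and Gzmk are filled at 72 h.

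Between 72 h and 48 h, 8 of the 10 genes were higher at 72 h and 1, Gzmb, was lower, in ko and in wt cells alike. In ko cells 34.4% of all tested genes were higher and 33.6% lower, and in wt cells 33.6% were higher and 29.9% lower. The median over the 10 genes was a log2 fold change of 1.19 in ko and 1.67 in wt cells, beside 0.03 and 0.05 over all tested genes. Both time comparisons share their libraries with the genotype comparisons above, so the values are set side by side only. Gzmg had the highest value, 3.59 (SE 0.30) in ko and 2.93 (SE 0.32) in wt cells, from 3 to 19 reads in a library at 48 h. In wt cells it lay within 1 SE of Gzmd, and without wt replicate 1 of 48 h, which had 3 reads of Gzmg, it was 2.64, against 2.54 for Gzmd. Gzmg was followed in ko cells by Gzmk at 2.49 (SE 0.32), Gzmf at 1.94 (SE 0.19), Gzmd at 1.61 (SE 0.15) and Prf1 at 1.36 (SE 0.10). In wt cells the next values were Gzmd at 2.66 (SE 0.16), Gzmf at 2.03 (SE 0.20), Gzme at 1.76 (SE 0.14), Gzmc at 1.71 (SE 0.08) and Gzma at 1.63 (SE 0.10). Gzmc, Gzma and Gzme rose by 1.03, 0.96 and 0.60 in ko cells. Prf1 and Gzmk rose by 0.96 and 1.39 in wt cells. The highest adjusted p among these 16 rises was 0.000896, for Gzmk in wt cells (edgeR). Gzmb fell by 0.22 (SE 0.06, adjusted p = 0.00349, edgeR) in ko and by 0.29 (SE 0.06, adjusted p = 0.000407) in wt cells. Gzmm stood at -0.79 (SE 0.37, adjusted p = 0.0606) in ko and 0.29 (SE 0.39, adjusted p = 0.523) in wt cells. In 5 of the settings tried, among them library-size scaling (adjusted p = 0.0442), its change in ko cells passed.

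**Figure D3:**
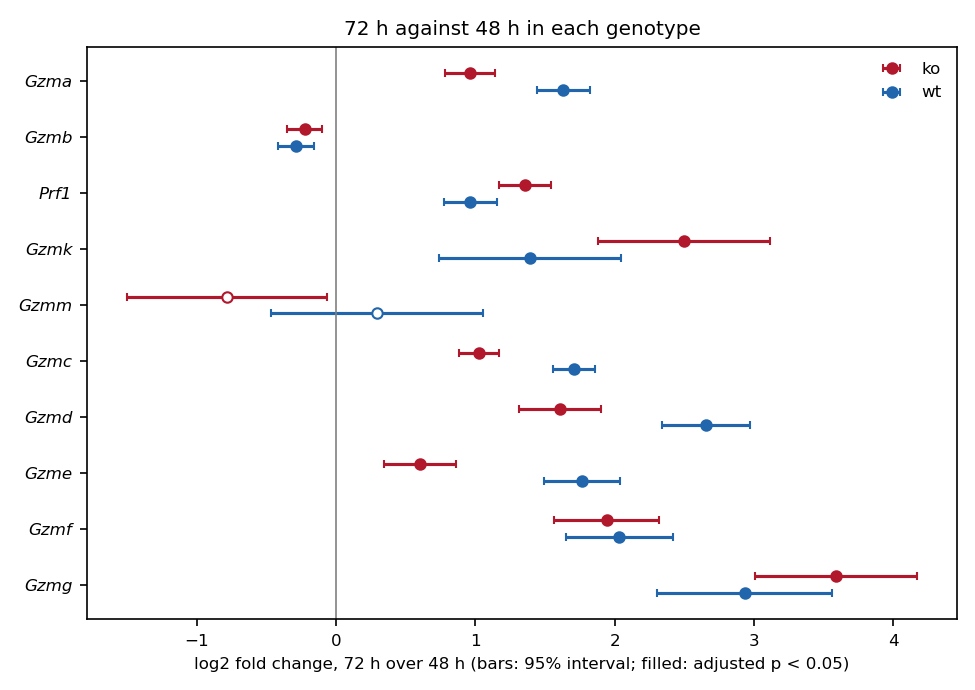
Log2 fold change of 72 h over 48 h for the 10 genes in ko (red) and wt (blue) cells, from edgeR, with bars for the 95% interval. Filled points passed an adjusted p of 0.05. Gzmb lies below 0 in both genotypes, and the points of Gzma, Gzmc, Gzmd and Gzme lie further right in wt than in ko cells.

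Levels can be compared between genes only per length, here as CPM per kb of exon. Gzmb had 4510 ± 413.2 in ko and 3659 ± 208.9 in wt cells at 72 h, and 5512 ± 75.2 in ko and 4388 ± 47.0 in wt cells at 48 h (SD, n = 4 each). On this scale it made up 93.2% of the sum of the 10 genes in ko and 93.6% in wt cells at 72 h, and 97.2% in ko and 98.2% in wt cells at 48 h. The next places differed between the genotypes. In ko cells Gzma came second, at 118.0 ± 4.94 at 72 h and 63.3 ± 8.21 at 48 h, ahead of Gzmc at 94.9 ± 10.9 and 48.8 ± 3.19. In wt cells Gzmc came second, at 98.4 ± 3.86 at 72 h and 29.6 ± 2.42 at 48 h, ahead of Gzma at 72.6 ± 8.16 and 23.1 ± 1.42. The ranges of these neighbours did not overlap in any of the 4 groups. Prf1 came next in all groups, at 64.2 ± 11.4 in ko and 31.5 ± 2.77 in wt cells at 72 h and 26.2 ± 1.59 in ko and 15.8 ± 0.910 in wt cells at 48 h. Its range overlapped that of the next gene, Gzmd, in wt cells at 72 h, where Gzmd had 24.4 ± 4.39. Gzme and Gzmf followed, then Gzmg, Gzmk and Gzmm at 4.34 or less, of which neighbours overlapped in part of the groups.

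Ratios between members were also formed within each library. The ratio of Gzmb to Prf1, per kb, was 71.5 ± 10.7 in ko and 117.3 ± 16.3 in wt cells at 72 h, and 211.0 ± 11.9 in ko and 278.1 ± 16.6 in wt cells at 48 h (SD, n = 4 each). Its ranges did not overlap between any of these groups. The ratio of Gzmb to Gzma was 38.2 ± 2.54 in ko and 50.8 ± 6.24 in wt cells at 72 h, and 88.2 ± 11.5 in ko and 190.9 ± 13.5 in wt cells at 48 h. Gzmd and Gzme, the closest pair in sequence, stood at a ratio of 2.04 ± 0.149 in ko and 1.95 ± 0.0824 in wt cells at 72 h. At 48 h the ratio was 1.00 ± 0.0551 in ko and 1.04 ± 0.120 in wt cells, so it differed by time and overlapped between genotypes.

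**Figure D4:**
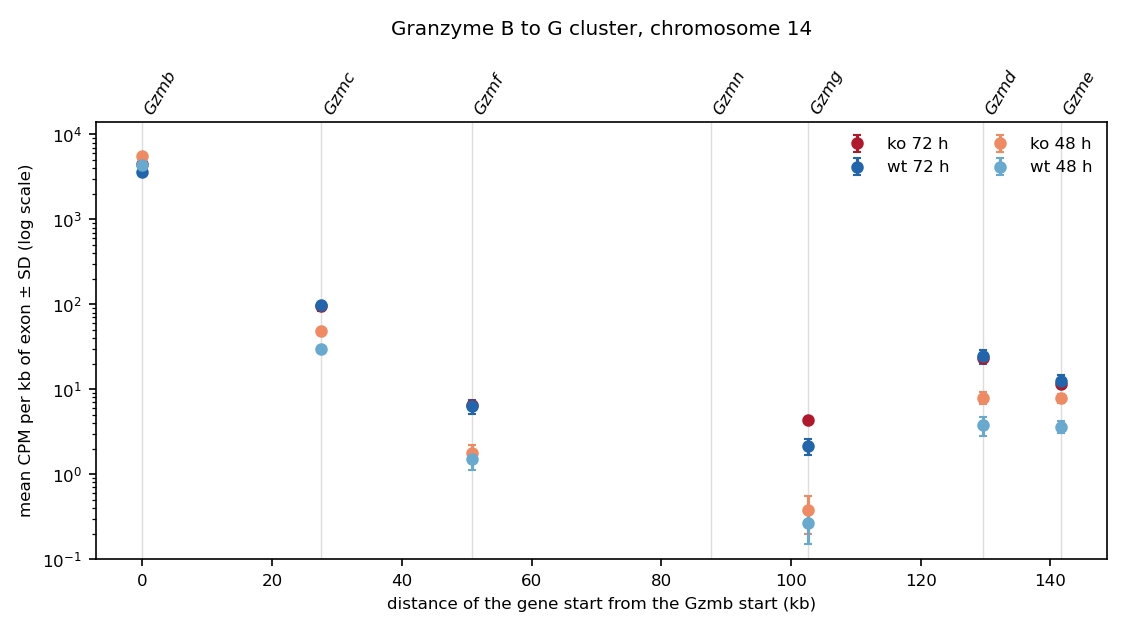
Mean CPM per kb of exon (log axis, bars are the SD, n = 4) of the 6 members in the chromosome 14 cluster, placed by the distance of their start from that of Gzmb, for ko and wt cells at 72 h and 48 h. Gzmn, marked without a point, had 0 or 1 read in every library. Gzmb lies far above the rest, and levels do not fall evenly with distance.

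The other genes around the clusters were read for the same libraries. On chromosome 14, Ctsg, Cma1, Cma2 and the Mcpt genes, proteases of mast cells and other myeloid cells that lie beyond Gzme, had 0 to 8 reads in every library. On the far side of Gzmb, Atp12a had 0 to 9 reads. The nearest neighbours of the 6 granzyme genes thus had few or no reads. Further out, beyond Cma1, Khnyn had 952 to 3577 reads and Sdr39u1 194 to 413. On chromosome 13, Cdc20b, the nearest gene beyond Gzma, had 0 to 15 reads. Further out on that side Dhx29 had 613 to 1981 reads and Mtrex 3294 to 8563.

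Genes that store, release or restrain the granule proteins were read from lists, whose counts stand beside the 16.9% of all tested genes called higher and 19.5% called lower at 72 h, and the 4.41% higher and 2.66% lower at 48 h. Of 9 tested genes for granule contents and cofactors, 6 passed higher and 0 lower in ko than in wt cells of 72 h (median log2 fold change 0.36), and 2 were higher and 0 lower at 48 h (0.04). Nkg7, a granule membrane protein needed for degranulation, had 455.2 ± 21.05 CPM in ko and 359.2 ± 9.13 CPM in wt cells at 72 h (SD, n = 4 each), a log2 fold change of 0.47 (adjusted p = 4.89e-06, edgeR). At 48 h it stood at 0.28 (adjusted p = 0.00824), but at adjusted p = 0.185 with offsets for exon length and 0.0553 without ko replicate 2 of 48 h. Ctsw, the lymphocyte protease cathepsin W, was higher by 0.56 at 72 h and 0.36 at 48 h. Lamp2, a lysosomal membrane protein, was higher by 0.61 at 72 h and stood at 0.10 at 48 h (adjusted p = 0.500). Srgn, the proteoglycan that packs granzymes and perforin, was higher by 0.45 at 72 h (adjusted p = 1.20e-05, edgeR) and stood at 0.03 at 48 h (95% interval -0.10 to 0.16).

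Of 14 tested genes of the release machinery, 5 passed higher and 1 lower in ko than in wt cells of 72 h (median log2 fold change 0.10), and 1 was higher and 0 lower at 48 h (0.12). The shares over all tested genes called in these directions were 16.9% (higher) and 19.5% (lower) at 72 h. At 48 h 4.41% of all tested genes passed higher, so the single call there lies near the general share. Rab27a, the small GTPase that docks granules at the membrane, was higher by 0.21 at 72 h and by 0.29 at 48 h. The value at 72 h did not pass with library-size scaling (adjusted p = 0.289). At 72 h Vamp8, a vesicle fusion protein, was higher by 0.44. Sytl2, which binds Rab27a, was higher by 0.38 at that time, though not with library-size scaling (adjusted p = 0.0543). At 48 h Sytl2 stood at 0.36 (adjusted p = 0.0503, edgeR) and passed in 10 of 26 alternative settings. Lyst, which regulates lysosome size and is mutated in human Chediak-Higashi syndrome, stood at -0.52 at 72 h (adjusted p = 0.000186, edgeR). Its value at 48 h was -0.20 (adjusted p = 0.206, edgeR), which passed in 2 of 26 settings.

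Of the 6 listed serpins, a family of protease inhibitors, 5 passed higher and 0 lower in ko than in wt cells of 72 h (median log2 fold change 0.33), and 3 were higher and 0 lower at 48 h (0.31). Serpinb1a, known as an inhibitor of neutrophil serine proteases, had 28.3 ± 1.25 CPM in ko and 2.80 ± 0.722 CPM in wt cells at 72 h, a log2 fold change of 3.45 (SE 0.14, adjusted p = 9.21e-15, edgeR). At 48 h it had 3.15 ± 0.189 CPM in ko and 1.46 ± 0.211 CPM in wt cells (1.14, SE 0.16). Serpinb9, the inhibitor of granzyme B, was higher by 0.36 at 72 h (adjusted p = 0.00907, edgeR) and stood at 0.30 at 48 h (adjusted p = 0.0755). The 48 h value of Serpinb9 passed in 5 of 26 alternative settings, among them that without ko replicate 4 of 48 h (adjusted p = 0.031, edgeR). Serpinb6b was higher by 0.64 at 72 h and by 0.32 at 48 h, and Serpina3g by 0.23 at 72 h and by 0.43 at 48 h. The 48 h call of Serpinb6b (adjusted p = 0.0436) and the 72 h call of Serpina3g (adjusted p = 0.0481) lie near the threshold and were lost in 13 and 14 of 26 alternative settings.

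Among genes for proteins that take granzymes up or are cut by them, 0 of 12 tested genes were higher and 4 lower in ko than in wt cells of 72 h (median log2 fold change -0.05), with 0 called at 48 h (-0.07). Since 19.5% of all tested genes were lower at 72 h and the median lies near 0, this count gives no direction for the list. Among those lower at 72 h were Gsdme, the pore former gasdermin E (-0.60), Igf2r, the mannose 6-phosphate receptor (-0.43), and Bid, which granzyme B cuts (-0.40). The call of Gsdme (adjusted p = 0.0157, edgeR) was lost with exon length offsets (0.0877) and without ko replicate 1 (0.0583) or 2 (0.0537) of 72 h.

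Of 15 tested regulators of cytotoxic genes, 5 passed higher and 4 lower in ko than in wt cells of 72 h (median log2 fold change 0.05), and 4 were higher and 1 lower at 48 h (0.05). Over all tested genes the shares at 72 h were 16.9% called higher and 19.5% called lower, and the count of lower regulators is close to this. At 48 h they were 4.41% called higher and 2.66% called lower. Prdm1, which encodes Blimp-1, was higher by 0.28 at 72 h (adjusted p = 0.0334, edgeR) and by 0.92 at 48 h (adjusted p = 7.31e-06). The 72 h call of Prdm1 was lost with library-size scaling (0.282), without the 2 libraries that stand apart (0.0822), and without ko replicate 1 (0.0821), 2 (0.0576) or 4 (0.0827) or wt replicate 4 (0.127) of 72 h. Zfp683, which encodes the related Hobit, had 1.69 ± 0.431 CPM in ko and 0.959 ± 0.294 CPM in wt cells at 48 h (0.85, SE 0.22, adjusted p = 0.0205, edgeR). Of 26 alternative settings 6 lost that call, among them those without ko replicate 2 (0.123) or wt replicate 1 (0.0705), 2 (0.0576) or 4 (0.0793) of 48 h. Id2 was higher at both times, by 0.43 at 72 h and by 0.39 at 48 h. Eomes, a T-box factor that acts on Prf1 and Gzmb, had a log2 fold change of -0.46 at 72 h (adjusted p = 4.76e-05, edgeR) and 0.02 at 48 h (95% interval -0.13 to 0.16). Tbx21, which encodes T-bet, stood at -0.11 (adjusted p = 0.265) at 72 h and 0.15 (adjusted p = 0.235) at 48 h, and Runx3 at 0.05 and 0.09. Tcf7, a gene of less differentiated T cells, was lower at 72 h (-0.37). At 48 h Tcf7 stood at -0.28 (adjusted p = 0.0717, edgeR) and passed in 7 of 26 alternative settings.

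The 6 listed genes for other ways of killing and for effector cytokines split in both directions, with 2 higher and 4 lower in ko than in wt cells of 72 h (median log2 fold change -0.35) and 2 higher and 1 lower at 48 h (-0.07). Ifng had 33.2 ± 8.74 CPM in ko and 74.9 ± 24.1 CPM in wt cells at 72 h (log2 fold change -1.05, SE 0.22, adjusted p = 0.00251, edgeR). At 48 h Ifng had 231.6 ± 33.0 CPM in ko and 321.7 ± 13.5 CPM in wt cells (-0.44, adjusted p = 0.251, edgeR). That value passed in 2 of 26 alternative settings. Lta, lymphotoxin alpha, stood at -0.80 at 72 h and -0.45 at 48 h, the value at 48 h passing at adjusted p = 0.0298 and not without wt replicate 1 (0.105) or 4 (0.0908) of 48 h. Fasl, the ligand of the death receptor Fas, was at -0.30 at 72 h (adjusted p = 0.0100, edgeR) and -0.04 at 48 h (adjusted p = 0.854). Tnfsf10, which encodes TRAIL, was higher by 0.56 at 72 h and by 0.36 at 48 h, where 13 of 26 settings lost the call (adjusted p = 0.0441). Ltb was higher by 0.39 at 72 h and by 0.38 at 48 h.

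**Figure D5:**
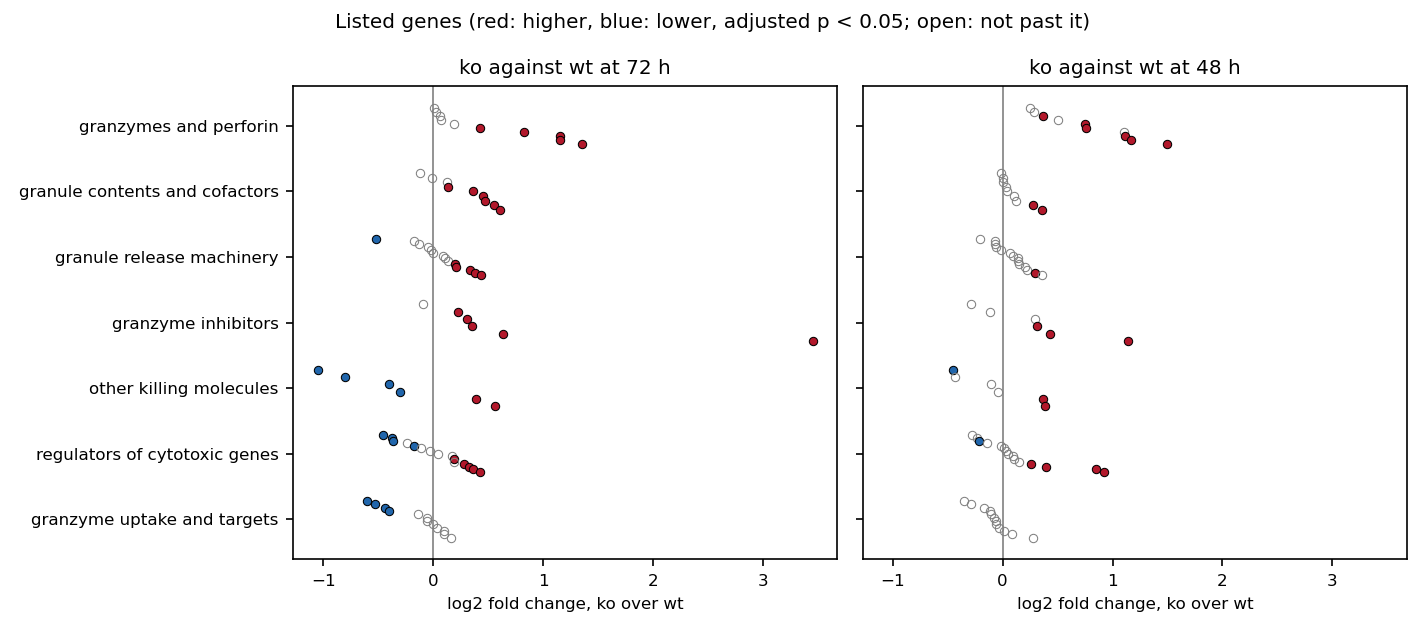
Log2 fold change of ko over wt for each tested gene of the granzyme and perforin set and of the 6 lists, at 72 h (left) and 48 h (right) on one scale. Red points were higher and blue points lower at an adjusted p of 0.05 in edgeR, and open points did not pass it. Members are 5 red at 72 h and 6 red at 48 h, and the point at 3.45 at 72 h is Serpinb1a.

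Markers of other cells were read beside the members, and their part in these results was not tested. Of 12 NK and gamma delta T cell markers, 5 passed higher and 0 lower in ko than in wt cells of 72 h, and 4 higher and 0 lower at 48 h, beside 16.9% of all tested genes higher at 72 h and 4.41% at 48 h. Their summed level was 135.0 to 145.1 CPM in ko and 112.4 to 127.8 CPM in wt libraries at 72 h, and 83.9 to 91.3 CPM in ko and 65.8 to 74.5 CPM in wt libraries at 48 h. The largest part of that sum was Cd160, at 71.2 CPM in ko and 72.3 CPM in wt cells at 72 h. At that time Klre1 had 18.4 CPM in ko and 9.80 CPM in wt cells, Klrb1c 6.92 and 4.37 CPM, and Gpr55 24.1 and 14.4 CPM. The gamma delta receptor genes Trdc (4.11 CPM in ko and 3.80 CPM in wt cells) and Tcrg-C2 (8.72 and 8.47 CPM) lay closer together. The NK receptors Ncr1, Klra8 and Klra4 and the gamma delta factor Sox13 were under 1 CPM in every library. Of 10 macrophage, monocyte and granulocyte markers, 3 could be tested and were higher in ko cells at 72 h, with 2 higher at 48 h. That list summed to 62.5 to 66.8 CPM in ko and 26.3 to 33.5 CPM in wt libraries at 72 h and 16.8 to 19.5 CPM in ko and 8.44 to 11.1 CPM in wt libraries at 48 h. Of its genes, Adgre1, S100a8 and S100a9 were at 0 in every library, and Lyz2, Csf1r, Itgam and Ly6g under 1 CPM. Even so, Ly6g had 0.266 to 0.902 CPM in ko libraries and 0 CPM in wt libraries at 72 h. Itgam had 0.175 to 0.784 CPM in ko and 0.084 to 0.288 CPM in wt libraries at that time, with overlap. At 72 h Fcgr3 had 8.92 CPM in ko and 0.675 CPM in wt cells, Ccr2 45.9 and 23.8 CPM, and Cd68 9.37 and 6.29 CPM. At 48 h Fcgr3 had 3.46 CPM in ko and 0.227 CPM in wt cells, Ccr2 13.1 and 8.20 CPM, and Cd68 1.34 and 1.47 CPM. Of the mast cell and basophil markers only Kit exceeded 1 CPM, at 29.1 ± 5.53 CPM in ko and 54.3 ± 3.78 CPM in wt cells at 72 h, and Mcpt4 was at 0 throughout.

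The tested genes whose profile over the 16 libraries lay nearest to that of a member were found by the root mean square difference of centred log2 CPM, among 9190 or 9191 genes of sufficient level. For Prf1 they were Flot1 (0.209), Fgl2 (0.211) and Ubash3b (0.216), against a median of 0.816 over all genes. For Gzma they were Klre1 (0.253), Ubash3b (0.270) and Ifi203 (0.288), with a median of 0.940. Klre1 is among the NK and gamma delta T cell markers given above. Gzmb, whose profile varied least of these 5, was nearest to Ahcy (0.0965), Gm4737 (0.0969) and Gm14295 (0.106), with a median of 0.358. Gzmc was nearest to H2afv (0.190), Smim3 (0.196) and Ddit4 (0.205), with a median of 0.787. For Gzmk the closest were Gm37881 (0.410), Tnfrsf26 (0.433) and Tcp11l2 (0.438), with a median of 1.15. The measure is not scaled to how much a profile varies, so it does not rank nearness between members. The SD of the profile was 1.11 for Gzmk and 0.247 for Gzmb, and Gzmk had only 26 to 47 reads in a library at 48 h. Ubash3b was among the 3 nearest of both Prf1 and Gzma.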

How the data were processed

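The authors deposited raw counts of reads for 55335 genes in 16 libraries, and GENCODE M21 for GRCm38 held 55154 of those identifiers. Per the labels' protocols, poly-A RNA was captured from 100 ng of total RNA and made into stranded libraries. Per the submitters' processing notes, reads were handled with featureCounts, STAR 2.7 and bcl2fastq 2.2.0 on GRCm38. The sources used here do not state their annotation, their strand setting or their treatment of reads that match several genes, which leaves close copies and overlapping genes uncertain. RNA lacking poly-A and differences between isoforms are not seen in such counts.

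Levels were computed as CPM, reads scaled to the column sum, and, to compare genes, as CPM per kb of merged exon. Library totals ran from 29375818 to 39241169. Groups were taken from the labels, with 4 libraries each, and no pair of libraries of a group held identical counts or agreed within sampling noise. Tests were run across all genes with edgeR 4.0.16 in R 4.3.3 (robust two-sided quasi-likelihood F test, TMM scaling, filterByExpr at 10 counts) on all 16 libraries. Ko was compared with wt at 72 h and at 48 h, the 2 times were compared within ko and within wt, and the interaction was tested. Benjamini-Hochberg adjustment covered 15197 tested genes, and 0.05 was the threshold. Standard errors were taken as the absolute log2 fold change over the square root of F, and 95% intervals were 1.96 standard errors to each side. The biological coefficient of variation was 9.68%. The script was tested on simulated counts.

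Tried as alternatives were DESeq2 1.42.0, limma-voom (limma 3.58.1), library-size and median-ratio scaling, no filter, a minimum count of 50, fits restricted to the groups compared, a replicate block, exon length offsets, removal of the 2 libraries standing apart, and removal of single libraries. Named genes of the lists were put through them after the data were seen.

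The members and the lists were chosen with earlier results of these data known. Named were all 10 members and, from each of 6 pathway lists (66 genes, of which Vamp7 was not matched), up to 3 genes of largest change among those called at each time. Tbx21, Eomes, Prdm1, Runx3, Srgn, Nkg7, Serpinb9 and Fasl were named whatever their result, and for 5 members the 3 genes of nearest profile were named. Bid, the marker genes and the neighbours of the clusters were added to complete a count or a list. Some genes counted in the lists are not reported here by name. The sets of markers for CD8 T cells, CD4 T cells, NK and gamma delta T cells, macrophages, B cells, mast cells and early granulocytes were 7. B cell markers summed to 304.5 to 335.0 CPM in ko and 223.4 to 293.2 CPM in wt libraries at 72 h, and 284.5 to 317.6 CPM in ko and 246.1 to 256.8 CPM in wt libraries at 48 h, nearly all Ighm, with Ms4a1, Cd79a and Pax5 under 1 CPM. Elane, Prtn3, Ctsg and Mpo were each under 1 CPM in every library. Transcript stretches came from GENCODE M21 and promoters from RefSeq, in which all 10 members were found.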

Additional observations from a re-analysis of the deposited data

Results flagged for a closer look

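Within groups of 4 libraries, 4 values of members lay apart from the other 3 by a gap above Dixon's 95% critical value. Over 44 groups tested, chance alone flags about 1 in 20. Prf1 had 122.5 CPM in ko replicate 3 of 72 h, below the other libraries of its group. Gzmk had 1.36 CPM in ko replicate 2 of 48 h, above the others. Gzmm had 0.617 CPM in ko replicate 3 of 48 h, and Gzmg 0.0816 CPM (3 reads) in wt replicate 1 of 48 h, both below the others. The call of Prf1 at 72 h and the lack of one for Gzmk and Gzmg at 48 h were the same without these libraries, while Gzmm at 48 h then passed the threshold.

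The effect of genotype differed between 72 h and 48 h for 4 members by the interaction test in edgeR. The difference of the log2 fold changes was -0.67 for Gzma, -0.68 for Gzmc, -1.05 for Gzmd and -1.17 for Gzme, each the 72 h effect minus the 48 h effect. All 4 passed in each of the alternatives in which the interaction was fitted.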

How the results depend on the processing

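Of 1285 log2 fold changes of members recomputed under the alternatives, 1275 kept their direction and side of the threshold or did not pass either way, 0 lost a call, 0 reversed a call and 10 gained one. The gains were in Gzmm, Prf1 and Gzmk, and those of the replicate block and of single libraries are among the values below.

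At 48 h the genes called, 1075, were 1658 with DESeq2 and 2550 without the 2 libraries that stand apart, and between 507 (without wt replicate 1 of 48 h) and 1955 (without ko replicate 4 of 48 h) with single libraries left out. The interaction, with 853 genes called, gave 1413 with library-size scaling and between 446 and 1056 with single libraries left out, where it moved by more than 1.5 times without ko replicate 3 (474) and wt replicates 1 (518) and 4 (488) of 48 h and without ko replicate 3 (514) and wt replicate 3 (446) of 72 h. Of the members, 6 to 7 were called higher at 48 h with single libraries left out. In ko cells at 72 h against 48 h, 1 member was lower, and 2 were with library-size scaling, limma-voom and the replicate block, and 1 to 2 with single libraries left out. For the interaction 0 members were higher, and 1 was with DESeq2 (Prf1), 2 with no filter on low counts (Prf1 and Gzmk), and 0 to 1 with single libraries left out. The share of higher calls in the interaction was 37.0%, and 13.0% with library-size scaling and 49.4% with exon length offsets. The causes of these moves were not tested, except that leaving libraries out leaves fewer samples.

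Replicate numbers did not pair the libraries. The deviations of same-numbered libraries correlated between -0.599 and 0.294, with 9 of 24 pairs over 0.1 and 2 of 16 libraries closest to one of their own number. With the number as a replicate block, 918 genes were called at 48 h, 5399 at 72 h and 709 in the interaction, and Gzmm in ko cells at 72 h against 48 h passed (adjusted p = 0.036, edgeR). No other call of a member changed.

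Of 36 calls among the named genes of the lists, 25 held in all 26 alternatives, 11 were lost in at least 1 and 0 reversed. Depth limits Gzmg, Gzmk and Gzmm most, which had 3 to 47 reads in a library at 48 h. The fit with only the groups compared gave no interaction.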
